A study of Rattus norvegicus with 8 samples.

Results

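The genes described here fold, refold or dispose of proteins in the endoplasmic reticulum (ER) and in the cytosol. They were chosen as a list of 34 gene symbols: 10 ER chaperones, 4 ER oxidoreductases, 3 genes of ER-associated degradation, 5 transcription regulators of the unfolded protein response, 10 cytosolic heat shock proteins and 2 mitochondrial chaperonins. Of these, 32 had a probe set of their own among the 14506 genes measured, and a gene with several probe sets was read from its brightest. The rule picks a probe set by its mean level only, but the genes themselves were chosen with earlier results of these data known. Shares of the list set beside those of all genes are therefore descriptions and not tests. The remaining pair, Hspa1a and Hspa1b, shared 1 probe set that the array annotation also gives to Hspa1l, so neither has a level of its own here.

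RNA came from the hypothalamus of female Sprague-Dawley rat offspring aged 21 d and was measured on 8 Affymetrix Rat Gene 1.0 arrays, 2 for each of 4 groups. CR-l offspring were born to calorie-restricted mothers and received leptin, the fat-derived hormone that signals energy stores to the hypothalamus. CR-s offspring had the same mothers' diet and received saline. Con-l and Con-s offspring were born to normally fed mothers and received leptin and saline. Restricted mothers had 50% of their calories withheld from gestation day 11 to day 21, with restriction continued after birth, and leptin or saline was given from postnatal day 2 to day 8. The study's design note names the leptin-treated control group Con-r, which was read as Con-l from the sample titles. By their wording the labels could mean that mothers rather than pups were treated. Pooling of animals within a sample is neither stated nor denied, so every p-value measures only the spread between these 8 samples. The arrays come from whole hypothalamus, in which fewer cells of a type and less RNA per cell cannot be told apart.

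Secreted and membrane proteins fold in the ER, where the Hsp70-type chaperone BiP, lectin chaperones and disulfide isomerases act on them. When unfolded proteins accumulate, the sensors IRE1, PERK and ATF6 start the unfolded protein response, in which the transcription factors XBP1, ATF4 and cleaved ATF6 raise the genes of ER chaperones and of degradation. The cytosol has a separate system, the heat shock response, in which the factor HSF1 raises Hsp70, Hsp90 and their co-chaperones. Both systems also run at a steady level in neurons and glia, and ER stress in the hypothalamus is a known modifier of leptin signalling.

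The arrays were alike in brightness, with median intensities of 112 to 114, and the 2 arrays of each group correlated at 0.995. The log2 values of CR-s B spread least, with an interquartile range of 2.92, against 3.01 to 3.08 for the other 7 arrays. Hypothalamic peptide genes were present on all arrays, with summed intensities of 8870 to 9388 on the CR arrays, against 8606 to 10856 on the Con arrays. Pituitary markers summed to 887 on Con-l A, against 345 to 351 on the other Con arrays and 328 to 388 on the CR arrays. The list as a whole did not show this. The median log2 deviation of the 7 markers from their means over the 8 arrays was 0.007 on Con-l A. Con-l A also had the highest sum of meninges markers, 5196, and whether its dissection differed was not tested. Summed intensities of several marker lists separated by the diets in which the chaperone genes are compared below. Red cell markers summed to 1358 to 2171 on the CR arrays, against 3846 to 5821 on the Con arrays, with 6 of 6 measured markers below 0 in CR minus Con and 5 of them past the adjusted threshold. Markers of the meninges, the membranes around the brain, summed to 2813 to 3278 on the CR arrays, against 3800 to 5196 on the Con arrays, with 13 of 13 below 0 and 3 past the threshold. Markers of myelin summed to 41298 to 45022 on the CR arrays, against 48317 to 53347 on the Con arrays, with 13 of 13 below 0 and 4 past the threshold. Vessel markers summed to 4844 to 4986 on the CR arrays, against 5438 to 5786 on the Con arrays, with 9 of 12 below 0 and 2 past the threshold. Their brightest gene, Rgs5, averaged 10.67 in CR and 11.05 in Con offspring on the log2 scale. The median deviation of the vessel list overlapped between the diets, at -0.10 to 0.01 on the CR arrays and -0.01 to 0.13 on the Con arrays. Choroid plexus markers, all dim, summed to 477 to 490 on the CR arrays, against 506 to 567 on the Con arrays. Of these markers 4 of 6 were above 0 and 2 of 6 below, with 1 past the threshold, as lower, and a median difference of 0.03. The lowest difference was that of Kcnj13, which averaged 5.63 in CR and 6.80 in Con offspring on the log2 scale. The choroid plexus list as a whole thus did not move with diet. The sums overlapped for astrocyte markers, at 20839 to 22196 on the CR arrays, against 22119 to 23124 on the Con arrays, with 5 of 8 below 0 and 1 past the threshold. They also overlapped, narrowly, for neuron markers, at 24490 to 24864 on the CR arrays, against 23384 to 24523 on the Con arrays. Here the lean was upward, with 7 of 9 above 0 and 0 past the threshold. Microglia markers overlapped too, at 3835 to 4154 on the CR arrays, against 3877 to 4157 on the Con arrays, with 4 of 8 below 0 and 0 past the threshold. No marker was at 0 on any array, but these intensities are always positive, so this does not show that each was expressed. The dimmest marker, Prl, averaged 4.37 on the log2 scale. The part of these cell types in the chaperone differences was not tested.

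Maternal calorie restriction was compared first, by setting the 4 CR arrays against the 4 Con arrays with the average taken over leptin and saline. Diet differences are CR minus Con on the log2 scale throughout. Most chaperone levels lay a little lower in CR offspring: 26 of 32 measured genes had a log2 difference below 0, where 49.7% of all genes did, and the median difference was -0.08 among the 32 genes and 0.00 among all genes. The ER disulfide isomerase Pdia4 fell and was the only gene of the list that passed. To pass, a gene needed a p under 0.05 in limma's moderated test after Benjamini-Hochberg adjustment across the 14506 genes. Over all genes 1.21% passed, 0.882% as lower and 0.324% as higher. At an unadjusted p under 0.05 there were 11 of 32 genes, all lower, beside a background of 15.8% in either direction, 9.04% lower and 6.71% higher. The 11 were Hspa5, Hsp90b1, Hyou1, Calr, Pdia3, Pdia4, Pdia6, Trib3, Hsph1, Hsp90aa1 and Hspe1. In 12 genes every CR array lay below every Con array, where 6.67% of all genes did so, and in no gene of the list did every CR array lie above, where 4.52% of all genes did so (11.2% in either direction). Without any 1 array this count was 12 to 14. Leaving out an array cannot undo such a separation, so the count could not fall and this is no check of it. Of the 4 CR arrays, CR-l B was the lowest in 9 of these 12 genes and in 15 of all 32.

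**Figure D1:**
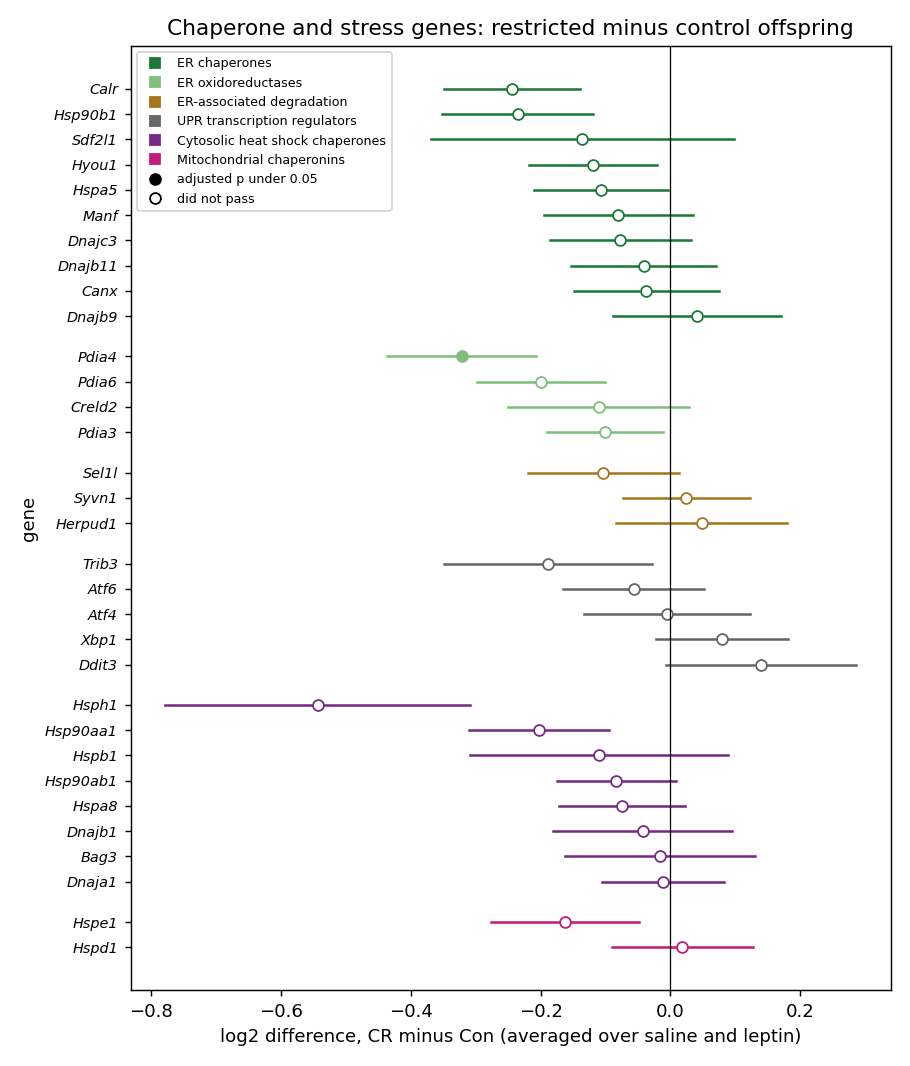
Log2 difference between CR and Con offspring, averaged over leptin and saline, for the 32 measured genes, ordered by role. Points are fitted differences, bars are 95% confidence intervals from limma, and the filled point marks an adjusted p under 0.05. Pdia4 is the filled point, Hsph1 lies farthest below 0 at -0.54 and Ddit3 farthest above at 0.14.

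The 10 ER chaperones had a median difference of -0.09, with 9 of 10 below 0 and none past the threshold. Hspa5 encodes BiP, the Hsp70-type chaperone of the ER lumen that also keeps the stress sensors inactive. Its log2 intensities were 11.78 and 11.69 in CR-l and 11.77 and 11.71 in CR-s, against 11.82 and 11.88 in Con-l and 11.83 and 11.86 in Con-s. All CR arrays lay below all Con arrays by a narrow margin, and the difference was -0.11 (SE 0.04, adjusted p = 0.301). Its promoter window, from 250 bases before to 50 bases after the annotated start in RefSeq (chr3:38452766-38453065, plus strand, rat assembly GRCr8), is shown because Hspa5 is the classic target of the unfolded protein response. The capitals mark an ER stress response element (ERSE), the site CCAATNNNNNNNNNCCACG through which ATF6 and XBP1 act together with the factor NF-Y.
Hspa5: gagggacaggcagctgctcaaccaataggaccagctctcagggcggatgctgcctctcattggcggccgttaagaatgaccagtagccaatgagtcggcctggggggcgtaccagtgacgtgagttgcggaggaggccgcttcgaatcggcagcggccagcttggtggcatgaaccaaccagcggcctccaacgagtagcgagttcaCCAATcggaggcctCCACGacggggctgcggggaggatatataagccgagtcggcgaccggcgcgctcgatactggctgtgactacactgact

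Hsp90b1 encodes GRP94, the Hsp90 of the ER, which folds receptors and integrins. It was measured at log2 intensities of 11.05 and 10.94 in CR-l and 10.99 and 11.10 in CR-s, against 11.22 and 11.29 in Con-l and 11.23 and 11.29 in Con-s. The groups did not overlap, CR-l B was the lowest array, and the difference was -0.23 (SE 0.05, adjusted p = 0.0841). Calr encodes calreticulin, a soluble lectin chaperone that binds glycoproteins and stores calcium. Calr had log2 intensities of 11.28 and 11.22 in CR-l and 11.32 and 11.28 in CR-s, against 11.56 and 11.53 in Con-l and 11.44 and 11.54 in Con-s. Every CR array was again below every Con array, with a difference of -0.24 (SE 0.04, adjusted p = 0.0578), just short of the threshold. Its membrane-bound relative Canx, calnexin, did not show this separation. It was measured at log2 intensities of 12.47 and 12.47 in CR-l and 12.45 and 12.58 in CR-s, against 12.47 and 12.55 in Con-l and 12.54 and 12.54 in Con-s. The diets overlapped, and the highest of the 8 was a CR array. The Canx difference was -0.04 (SE 0.05, adjusted p = 0.766), with a 95% confidence interval of -0.15 to 0.07.

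Hyou1 encodes a large Hsp70 relative that exchanges nucleotide on BiP. It gave log2 intensities of 9.14 and 9.24 in CR-l and 9.20 and 9.20 in CR-s, against 9.36 and 9.32 in Con-l and 9.29 and 9.28 in Con-s. The arrays separated by diet, with the Con arrays higher, and the difference was -0.12 (SE 0.04, adjusted p = 0.235). The remaining ER chaperones overlapped between the diets. Sdf2l1, a partner of BiP and its J-domain co-chaperones, had a difference of -0.14 (SE 0.10, adjusted p = 0.565) and spread widely, from 6.84 on CR-l B to 7.32 on Con-s A. Without CR-l B its difference was -0.03, and without CR-l A it was -0.24. Manf, a small secreted protein induced by ER stress that protects neurons, differed by -0.08 (SE 0.05, adjusted p = 0.484). The J-domain co-chaperones of BiP gave -0.08 for Dnajc3, -0.04 for Dnajb11 and 0.04 for Dnajb9, the last being the only ER chaperone above 0. Their adjusted p-values in limma were 0.478, 0.733 and 0.773.

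The ER oxidoreductases form and rearrange disulfide bonds, and all 4 measured genes were below 0, with a median of -0.16. Pdia4, also called ERp72, fell 1.25-fold in CR offspring. Its log2 intensities were 8.76 and 8.63 in CR-l and 8.75 and 8.68 in CR-s, against 9.10 and 9.03 in Con-l and 8.97 and 9.02 in Con-s. The 4 CR arrays were alike and lay clearly below the 4 Con arrays, with means of 8.71 ± 0.06 in CR and 9.03 ± 0.05 in Con offspring (SD, n = 4 each). The difference was -0.32 (SE 0.05, adjusted p = 0.0372) in limma over all genes. This call rests on all 8 arrays: leaving out any 1 of them gave an adjusted p of 0.0780 to 0.147, with the log2 difference at -0.35 to -0.29. The promoter window of Pdia4 (chr4:78153142-78153441, minus strand, GRCr8, RefSeq) is shown because Pdia4 was the gene that passed. It holds no complete ERSE on either strand and is therefore printed without capitals. The end of the element alone, CCACG, is in this window, as in 14 of 15 windows of ER genes and in 31.6% of all windows.
Pdia4: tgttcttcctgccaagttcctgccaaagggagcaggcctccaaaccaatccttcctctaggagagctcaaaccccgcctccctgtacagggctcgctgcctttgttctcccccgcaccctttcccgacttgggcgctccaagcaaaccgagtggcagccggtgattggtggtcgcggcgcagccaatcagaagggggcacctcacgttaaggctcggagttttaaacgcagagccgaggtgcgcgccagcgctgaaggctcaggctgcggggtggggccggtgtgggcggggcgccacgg

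Pdia6, another disulfide isomerase, which also tunes the stress sensors, was measured at log2 intensities of 9.54 and 9.44 in CR-l and 9.57 and 9.55 in CR-s, against 9.72 and 9.71 in Con-l and 9.73 and 9.74 in Con-s. Its Con arrays were almost identical and all above the CR arrays, and the difference was -0.20 (SE 0.04, adjusted p = 0.0840). Pdia3, or ERp57, works with calreticulin and calnexin on glycoproteins. On the log2 scale its values were 12.30 and 12.29 in CR-l and 12.32 and 12.35 in CR-s, against 12.42 and 12.44 in Con-l and 12.41 and 12.39 in Con-s. They did not overlap between the diets, but the difference was small at -0.10 (SE 0.04, adjusted p = 0.262). Creld2, an ER stress-induced protein with disulfide isomerase activity, overlapped between the groups and differed by -0.11 (SE 0.06, adjusted p = 0.425).

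**Figure D2:**
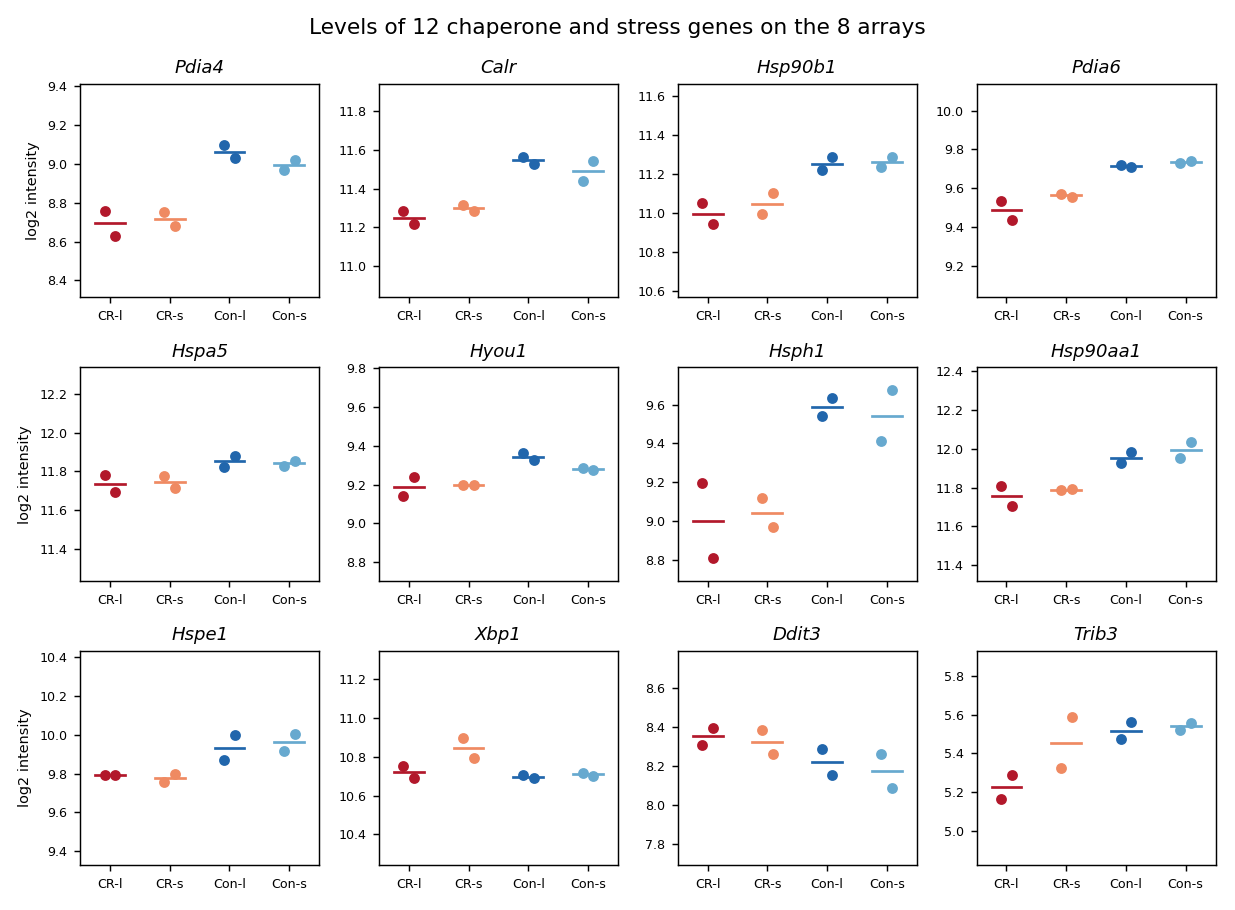
Log2 intensity of 12 genes on each of the 8 arrays, in 4 groups of 2, with a line at each group mean; every panel spans 1.1 log2 units. Pdia4, Calr, Hsp90b1, Pdia6, Hspa5, Hyou1, Hsph1, Hsp90aa1 and Hspe1 show all CR arrays below all Con arrays, while Xbp1, Ddit3 and Trib3 overlap.

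Genes of ER-associated degradation act in the removal of misfolded proteins by the proteasome. Of these, 1 of 3 was below 0 and the median difference was 0.02. Sel1l, the adaptor of the degradation complex, had log2 intensities of 9.30 and 9.16 in CR-l and 9.24 and 9.18 in CR-s, against 9.39 and 9.30 in Con-l and 9.30 and 9.30 in Con-s. The highest CR array only just reached the lowest Con array, and the difference was -0.10 (SE 0.05, adjusted p = 0.375). Syvn1, its partner ubiquitin ligase, differed by 0.02 (SE 0.04, adjusted p = 0.831), and Herpud1, a membrane scaffold of the same complex and an early target of the unfolded protein response, by 0.05 (SE 0.06, adjusted p = 0.733). Values of the last pair overlapped between the diets.

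The 5 transcription regulators were spread on both sides of 0, with 3 of 5 below and a median of -0.01. Xbp1, whose mRNA is spliced by IRE1 into the active form, had log2 intensities of 10.75 and 10.69 in CR-l and 10.90 and 10.79 in CR-s, against 10.70 and 10.69 in Con-l and 10.72 and 10.70 in Con-s. The 2 CR-s arrays were the highest, followed by CR-l A, while CR-l B was at the level of the Con arrays. The difference was 0.08 (SE 0.04, adjusted p = 0.432), and a single value per gene does not tell the spliced from the unspliced form. Atf4, which is controlled mainly by translation, differed by -0.01 (SE 0.05, adjusted p = 0.974), and Atf6, which is activated by cleavage of its protein, by -0.06 (SE 0.05, adjusted p = 0.615).

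Ddit3 encodes CHOP, a target of ATF4 that is linked to cell death under lasting stress. On the log2 scale its values were 8.31 and 8.39 in CR-l and 8.38 and 8.26 in CR-s, against 8.29 and 8.15 in Con-l and 8.26 and 8.09 in Con-s. The CR values were mostly the higher ones, with overlap, and the difference of 0.14 (SE 0.06, adjusted p = 0.338) was the highest of the list. Trib3, a pseudokinase induced by ATF4 and CHOP, was dim, at log2 intensities of 5.17 and 5.29 in CR-l and 5.32 and 5.59 in CR-s, against 5.48 and 5.56 in Con-l and 5.52 and 5.56 in Con-s. The groups overlapped because CR-s B was the highest of all arrays, and the difference was -0.19 (SE 0.07, adjusted p = 0.245). Ddit3 and its target Trib3 thus lay on opposite sides of 0, neither past the threshold.

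The 8 measured cytosolic heat shock genes were all below 0, with a median of -0.08, and none passed. Hsph1 encodes Hsp110, which exchanges nucleotide on Hsp70 and helps to dissolve aggregates. Its log2 intensities were 9.19 and 8.81 in CR-l and 9.12 and 8.97 in CR-s, against 9.54 and 9.63 in Con-l and 9.41 and 9.67 in Con-s. The CR arrays were all lower, and CR-l B lay far below CR-l A. The means were 9.02 ± 0.17 in CR and 9.57 ± 0.12 in Con offspring (SD, n = 4 each), and the difference of -0.54 (SE 0.10, adjusted p = 0.0589) was the largest of the list in size and missed the threshold. The promoter window of Hsph1 (chr12:10427118-10427417, plus strand, GRCr8, RefSeq) is shown as that of the cytosolic gene with the smallest unadjusted p. Its capitals mark a heat shock element of 3 units, GAANNTTCNNGAA read on the other strand, the kind of site that HSF1 trimers bind.
Hsph1: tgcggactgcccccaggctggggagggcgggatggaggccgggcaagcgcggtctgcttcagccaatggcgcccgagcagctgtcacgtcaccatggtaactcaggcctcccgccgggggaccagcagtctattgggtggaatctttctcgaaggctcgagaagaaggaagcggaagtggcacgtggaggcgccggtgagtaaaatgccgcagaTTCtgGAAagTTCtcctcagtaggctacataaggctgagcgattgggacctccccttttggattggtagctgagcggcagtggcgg

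Both forms of cytosolic Hsp90 were measured. Hsp90aa1, the stress-inducible form of this chaperone of kinases and steroid receptors, had log2 intensities of 11.81 and 11.70 in CR-l and 11.79 and 11.79 in CR-s, against 11.93 and 11.98 in Con-l and 11.95 and 12.03 in Con-s. The diets did not overlap, and the difference was -0.20 (SE 0.05, adjusted p = 0.0980). The constitutive form Hsp90ab1 had log2 intensities of 12.14 and 12.11 in CR-l and 12.10 and 12.14 in CR-s, against 12.22 and 12.18 in Con-l and 12.23 and 12.21 in Con-s. It also separated by diet, at a smaller difference of -0.08 (SE 0.04, adjusted p = 0.360). Hspa8, the constitutive Hsp70 of the cytosol, had log2 intensities of 13.44 and 13.36 in CR-l and 13.41 and 13.45 in CR-s, against 13.49 and 13.48 in Con-l and 13.48 and 13.50 in Con-s. Its arrays separated by diet with a gap of only 0.03, and the difference was -0.07 (SE 0.04, adjusted p = 0.438). All 8 probe sets annotated to Hspa8 alone gave differences below 0, between -0.08 and -0.04, with adjusted p-values of 0.540 to 0.742 when all probe sets were fitted in limma. They read the same gene in the same samples and are not independent of each other. On a dimmer one the diets overlapped, with CR-s B at 12.94 and Con-l A at 12.90.

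The inducible Hsp70 genes could be read only together. The probe set shared by Hspa1a, Hspa1b and Hspa1l averaged 7.70 ± 0.02 in CR and 7.66 ± 0.03 in Con offspring (SD, n = 4 each), and its difference was 0.04 (SE 0.04, adjusted p = 0.765 in limma over all probe sets). The other cytosolic genes overlapped between the diets. The small heat shock protein Hspb1 differed by -0.11 (SE 0.08, adjusted p = 0.584), which became -0.04 without CR-l A and -0.18 without CR-l B. Differences near 0 were found for the J-domain co-chaperones Dnajb1, -0.04, and Dnaja1, -0.01, and for Bag3, a co-chaperone that links Hsp70 to autophagy, -0.02.

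The mitochondrial chaperonins form a joint folding chamber. Hspe1, the lid, had log2 intensities of 9.79 and 9.79 in CR-l and 9.75 and 9.80 in CR-s, against 9.87 and 9.997 in Con-l and 9.91 and 10.01 in Con-s. Its CR arrays were nearly identical and below all Con arrays, with a difference of -0.16 (SE 0.05, adjusted p = 0.173). Hspd1, the barrel, had log2 intensities of 9.96 and 9.97 in CR-l and 10.04 and 10.17 in CR-s, against 10.05 and 10.01 in Con-l and 10.02 and 9.99 in Con-s. The highest array was CR-s B, the diets overlapped, and the difference was 0.02 (SE 0.05, adjusted p = 0.891). A second, dimmer probe set of Hspd1 gave -0.07.

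When ER and cytosolic chaperones were set side by side, the median diet differences were -0.10 over 17 ER genes, 14 of them below 0, and -0.08 over 8 cytosolic genes, beside 0.00 over all genes. On single arrays, the median deviation of the ER genes from their mean was -0.09 on CR-l B, -0.01 on CR-l A, -0.06 on CR-s B and -0.04 on CR-s A, against 0.04 to 0.08 on the Con arrays. For the cytosolic genes it ran from -0.10 on CR-l B to -0.04 on CR-l A, against 0.02 to 0.05 on the Con arrays. All CR arrays were below all Con arrays in both groups, and CR-l B was the lowest in each.

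**Figure D3:**
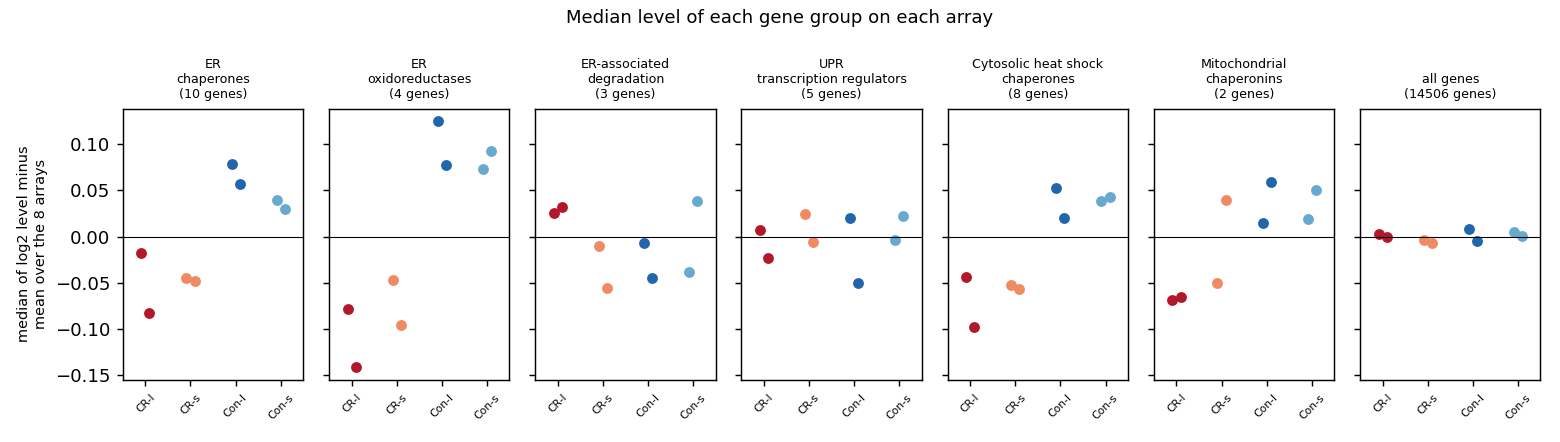
Median over the genes of each group of the log2 level minus the gene's mean over the 8 arrays, for each array, with all 14506 genes in the last panel. ER chaperones, ER oxidoreductases and cytosolic heat shock chaperones lie below 0 on all 4 CR arrays and above 0 on all 4 Con arrays. The medians of all genes stay between -0.01 and 0.01.

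Promoter sequence was compared with these differences. RefSeq promoter windows were matched for 28 of the 34 genes, giving 29 windows because Hyou1 has 2 starts. An exact ERSE on either strand stood in 22 of all 33469 windows (0.0657%) and in the windows of 7 listed genes. The element was first described in promoters of such genes, so its frequency among them is background rather than a result of the arrays. The sites are printed to show how far they vary between the fixed ends, which are in capitals.
Hspa5 (chr3:38452973-38452991): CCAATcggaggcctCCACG
Hsp90b1, distal (chr7:23012451-23012469): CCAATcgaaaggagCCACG
Hsp90b1, proximal (chr7:23012347-23012365): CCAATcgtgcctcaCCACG
Calr (chr19:40213135-40213153): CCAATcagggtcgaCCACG
Canx (chr10:35158069-35158087): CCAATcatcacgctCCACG
Creld2 (chr7:121789239-121789257): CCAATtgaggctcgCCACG
Dnajc3 (chr15:102432534-102432552): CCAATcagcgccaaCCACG
Xbp1 (chr14:84604558-84604576): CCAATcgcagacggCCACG

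Of these 7 genes, Hspa5, Hsp90b1 and Calr had all CR arrays below all Con arrays, with differences of -0.11, -0.23 and -0.24. Canx at -0.04, Creld2 at -0.11, Dnajc3 at -0.08 and Xbp1 at 0.08 overlapped. Pdia4, with a difference of -0.32, holds no such match in its window, and Pdia6, Pdia3 and Manf were not matched to a window. The short UPRE TGACGTGG, a site for XBP1 and ATF6, was found in Hyou1 and Bag3 and in 0.595% of all windows. The heat shock element GAANNTTCNNGAA, on either strand, stood in 267 of all windows (0.798%) and in those of Hsph1, Hspa8, Dnaja1, Hspd1 and Hspe1.
Hsph1 (chr12:10427332-10427344): GAActTTCcaGAA
Hspa8, distal (chr8:50080301-50080313): GAAagTTCcaGAA
Hspa8, proximal (chr8:50080459-50080471): GAAccTTCcaGAA
Dnaja1 (chr5:60638413-60638425): GAActTTCcaGAA
Hspd1 and Hspe1, first (chr9:64084262-64084274): GAAggTTCtaGAA
Hspd1 and Hspe1, second (chr9:64084267-64084279): GAAccTTCcgGAA

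Capitals again mark the fixed letters. Hsph1 and Dnaja1 carry the same 13 letters, and their diet differences were -0.54 and -0.01. The positions are unlike: the Hsph1 site lies before the annotated start on the opposite strand, and the Dnaja1 site after the start on the same strand. Hspd1 and Hspe1 are neighbours whose windows overlap and hold the same sites, and their differences were 0.02 and -0.16. A match of letters is a description of the window and says nothing of binding in this tissue.

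The diet comparison was then made within each treatment. The group means come from separate arrays, but each gene has a shared estimate of the spread, so the p-values under leptin and saline are not independent. Under leptin (CR-l against Con-l) 3 of all genes passed in limma (0.0207%), and 0 under saline (CR-s against Con-s), and none of the 32 genes was among them. At an unadjusted p under 0.05 there were 9 of the 32 under leptin, all lower, beside 7.27% lower and 14.2% in either direction over all genes. Under saline there were 7, all lower, beside 5.1% lower and 8.5% in either direction. Hsp90b1, Calr, Pdia4, Pdia6, Hsph1 and Hsp90aa1 were in both sets, Hyou1, Pdia3 and Trib3 in that under leptin and Hspe1 in that under saline. Pdia4 differed by -0.37 (SE 0.07, adjusted p = 0.102) under leptin and -0.28 (SE 0.07, adjusted p = 0.378) under saline. Hsph1 differed by -0.59 (SE 0.14, adjusted p = 0.159) under leptin and -0.50 (SE 0.14, adjusted p = 0.412) under saline. Signs matched in 25 of 32 genes (78.1%; 60.5% of all genes), and 22 were below 0 in both (68.8%; 30.9% of all genes).

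**Figure D4:**
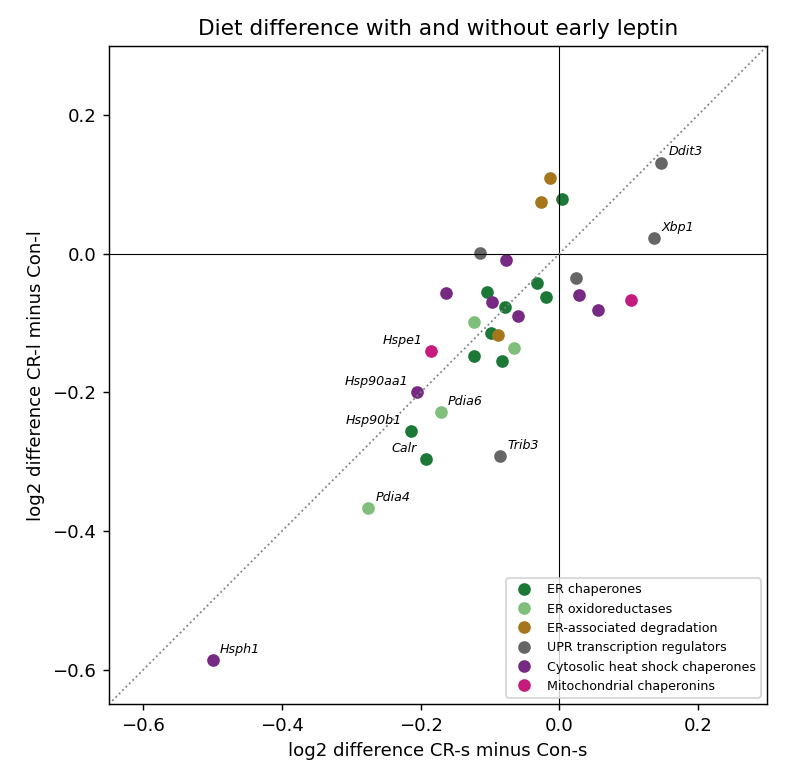
Log2 difference CR-l minus Con-l (vertical) against CR-s minus Con-s (horizontal) for the 32 genes, coloured by role, with a dotted line of equality. Hsph1 lies at -0.59 and -0.50, and 22 genes lie at the lower left, below 0 in both.

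Whether the diet difference itself changed with leptin was asked by the interaction. Over all genes limma passed 0, with 5.15% at an unadjusted p under 0.05, and none of the 32 genes reached even that. Estimates ran from -0.21 for Trib3 to 0.12 for Herpud1, with adjusted p-values of at least 0.898. For Pdia4 the interaction was -0.09 with a 95% confidence interval of -0.32 to 0.14, and for Hsph1 it was -0.09 with an interval of -0.56 to 0.38. The intervals of 29 of 32 genes stayed within 0.5 of 0, beside 31 in the averaged diet comparison.

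Leptin was compared with saline within each diet, as log2 differences of leptin minus saline. In CR offspring (CR-l against CR-s) limma passed 0 of all genes, with 5.85% at an unadjusted p under 0.05. Among the 32 genes, 2 did so, beside 2.81% lower over all genes: Trib3 differed by -0.23 (SE 0.10, adjusted p = 0.808) and Dnaja1 by -0.16 (SE 0.06, adjusted p = 0.808). For Dnaja1 both CR-l arrays lay below all other arrays, while for Trib3 the groups separated but the replicates of CR-s were far apart. Hspa5 differed by -0.01, with a 95% confidence interval of -0.15 to 0.14, and Pdia4 by -0.02, with an interval of -0.19 to 0.14.

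In Con offspring (Con-l against Con-s) limma passed 0 of all genes, with 4.19% at an unadjusted p under 0.05, none of them among the 32. Their differences ran from -0.14 for Dnajb9 to 0.13 for Dnajc3. Averaged over both diets, limma again passed 0, with 4.87% at an unadjusted p under 0.05. Among the 32 genes only 1 did so (3.12%), which was Dnajc3. Dnajc3, which encodes a J-domain co-chaperone of BiP also known as an inhibitor of PERK, had log2 intensities of 8.37 and 8.35 in CR-l and 8.30 and 8.16 in CR-s, against 8.43 and 8.44 in Con-l and 8.31 and 8.30 in Con-s. It was higher in both leptin groups than in the saline group of the same diet, by 0.13 on average (SE 0.05, adjusted p = 0.913). In both leptin comparisons all 32 confidence intervals stayed within 0.5 of 0. In the averaged diet comparison 31 did so too, so this margin does not set leptin apart from diet.

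**Figure D5:**
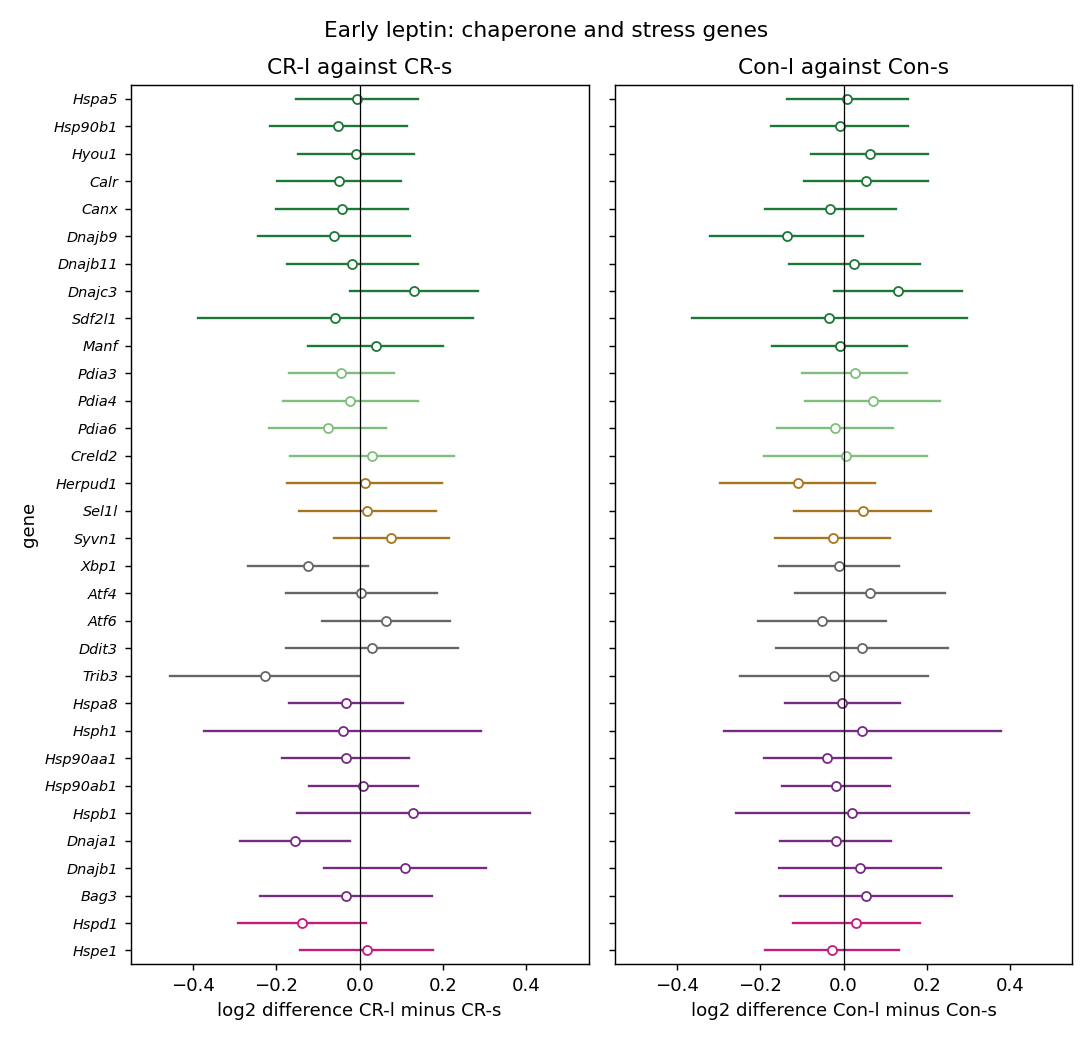
Log2 difference for leptin against saline in CR offspring (left) and Con offspring (right) for the 32 genes, with 95% confidence intervals from limma, coloured by role. No gene passed, and the estimates stay between -0.23 and 0.13 on the left and between -0.14 and 0.13 on the right.

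Wider lists of the same pathways were read in the averaged diet comparison. Among 33 measured genes for other cytosolic heat shock proteins and Hsp90 co-chaperones, 23 were below 0 with a median of -0.08, and 3 passed, 1 as higher and 2 as lower, beside 1.21%, 0.324% and 0.882% of all genes. Fkbp5, an Hsp90 co-chaperone of the glucocorticoid receptor and one of its targets, rose in CR offspring, with log2 intensities of 7.74 and 7.68 in CR-l and 7.72 and 7.68 in CR-s, against 7.19 and 6.93 in Con-l and 7.26 and 6.91 in Con-s. Every CR array was above every Con array, and the difference was 0.64 (SE 0.09, adjusted p = 0.0317). Fkbp4, its counterpart on the same receptor complex, fell, with log2 intensities of 8.46 and 8.47 in CR-l and 8.51 and 8.48 in CR-s, against 8.97 and 8.76 in Con-l and 8.75 and 8.86 in Con-s. All CR arrays were below all Con arrays, with a difference of -0.36 (SE 0.06, adjusted p = 0.0438). Chordc1, another Hsp90-binding protein, also fell, with log2 intensities of 9.22 and 8.97 in CR-l and 9.37 and 9.37 in CR-s, against 9.61 and 9.70 in Con-l and 9.55 and 9.65 in Con-s. Its CR arrays were all below its Con arrays, and the difference was -0.40 (SE 0.07, adjusted p = 0.0449). These 3 calls, too, rest on all 8 arrays: leaving out any 1 gave adjusted p-values of 0.0568 to 0.111 for Fkbp5, 0.0634 to 0.158 for Fkbp4 and 0.0518 to 0.165 for Chordc1. Hsf1 itself had a difference of -0.11 (SE 0.06, adjusted p = 0.449).

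None of the other lists held a gene that passed in this fit, though 5 of the genes named next passed under other settings. Of 24 other ER folding genes 17 were below 0, and the smallest p-values belonged to Nucb2 at 0.35 (SE 0.07, adjusted p = 0.0648), Txndc11 at 0.20 (SE 0.05, adjusted p = 0.130) and Uggt1, the folding sensor of glycoproteins, at -0.17 (SE 0.05, adjusted p = 0.155). Of 15 other degradation genes 9 were below 0, led by Selenos at 0.12, Rnf5 at -0.16 and Erlec1 at 0.15, with adjusted p-values of 0.198, 0.260 and 0.300. Of 30 stress sensors and genes of the integrated stress response 16 were below 0, and the leading genes were Psat1 of serine synthesis at -0.24, Creb3l1 at -0.30 and Atf6b, the relative of Atf6, at -0.15, with adjusted p-values of 0.127, 0.131 and 0.165. The cytosolic chaperonin TRiC had 5 of 8 subunits below 0, the leading ones being Cct5 at -0.07, Cct3 at -0.07 and Cct4 at -0.04. Of 8 other mitochondrial proteostasis genes 5 were below 0, and the leading ones were Yme1l1 at 0.12, Trap1 at 0.05 and Lonp1 at -0.03. Adjusted p-values of these 6 genes were at least 0.295.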

How the data were processed

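The 8 arrays measured hypothalamic RNA of the 4 groups, 2 each. Per the submitters' processing notes, the authors processed the arrays by RMA with Affymetrix Expression Console (version not given). Values were deposited as RMA intensities on the linear scale, from which log2 values were taken here without further normalization. Of 29215 probe sets, 15310 had 1 gene symbol in the array annotation, 323 had several and 13582 were not listed. Symbols were updated through RefSeq for GRCr8 by Entrez number (15279 probe sets) or accession (6), and 25 were kept. For the 527 genes with more than 1 probe set the brightest was used. Dim probe sets were kept, so all 32 genes entered every test.

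A single limma model (limma 3.58.1, R 4.3.3) fitted 4 group means, with 4 residual and 3.21 prior degrees of freedom. Tests were two-sided and adjusted by Benjamini-Hochberg over 14506 genes, and all adjusted p-values come from limma. The script was tested on simulated data. With 2 arrays per group, their number limits the precision. The intervals are 95% confidence intervals of the fit.

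The genes, the lists and the motifs were chosen with earlier results of these data known. All listed genes were named, with the genes that passed and the 3 smallest p-values of each wider list, and Fkbp5 and Hsf1 in any case. Motifs were searched as exact letters on both strands of RefSeq promoter windows. Alternatives were a replicate block, trended robust moderation, the brighter 60% of genes, all probe sets, the mean of probe sets, an offset of 16, array weights, cyclic loess, only the groups compared and leaving out each array. Protein sequences were not used here.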

Additional observations from a re-analysis of the deposited data

Results flagged for a closer look

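In 64 sets of 4 arrays (each of 32 genes in CR and in Con) an array was looked for that stood apart, by Dixon's ratio of its gap to the range of the set at the 95% level. It was found in 4 sets, where chance flags about 1 in 20, or 3.2 of 64. Hspe1 was 9.754 on CR-s A, below 9.790 to 9.797 on the other CR arrays. Canx was 12.469 on Con-l A, below 12.541 to 12.553 on the other Con arrays. Sel1l was 9.3946 on Con-l A, above 9.297 to 9.304. Herpud1 was 8.1618 on Con-s B, above 7.967 to 7.999.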

How the results depend on the processing

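In the averaged diet comparison, 1 gene of the list passed as reported. The count was 8 with trended robust moderation, 6 in the brighter 60% of genes (30 of the 32) and 5 with log2 of intensity plus 16. It was 0 with all probe sets tested and ranged from 0 to 0 without any 1 array. Over all genes 175 passed, against 744, 609, 345, 0 and 0 to 27 in those settings. In CR-l against Con-l the count of 0 became 6 with trended robust moderation, 2 in the brighter 60% and 1 with the offset of 16, where 3 genes over all became 469, 249 and 143. Of the genes named from the wider lists that had not passed, Nucb2, Psat1, Creb3l1, Txndc11 and Uggt1 passed with trended robust moderation, all but Uggt1 in the brighter 60%, and Nucb2 also with cyclic loess and the offset of 16. Chordc1, which had passed, did not pass with array weights or with cyclic loess, while Fkbp4 and Fkbp5 passed with both. The cause of these shifts was not tested. The other 5 comparisons gave 0 of the list in each setting run.

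The labels do not say whether the replicate letters pair the samples. Differences of A minus B correlated at -0.06 to 0.11 between groups, which shows no strong common shift but cannot exclude a pairing. With the replicate block, 0 genes of the list and 87 over all passed in the averaged diet comparison, and Pdia4 had an adjusted p of 0.0627 in limma. Pdia4 passed in 6 of 16 settings, and all probe sets gave 0.109.

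Medians of the diet difference stayed between -0.11 and -0.07 for the ER genes and between -0.09 and -0.07 for the cytosolic genes. Without any 1 array, 12 to 14 genes had no overlap between the diets (chosen after seeing the data), beside 8 to 9.18% of all genes. Both the count and the share can only stay or rise when an array is left out, so they do not test the separation. Of 814 values for single named genes, 804 kept their direction. The sign turned for genes near 0. Hspd1 was -0.026 with the mean of its probe sets. Without single arrays, Hspd1 ranged from -0.016 to 0.053, Dnajb9 from -0.0018 to 0.085, Dnajb1 from -0.086 to 0.00029, Atf4 from -0.050 to 0.038, Bag3 from -0.077 to 0.046 and Dnaja1 from -0.026 to 0.0015. Sdf2l1 kept its sign but ranged from -0.24 to -0.030, and Hspb1 from -0.18 to -0.038. With 2 arrays per group, the median standard error of a gene of the list was 0.07 within a treatment and 0.05 averaged over both, so differences of that size are not resolved.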
